A study of Mus musculus with 8 samples.

Results

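The genes described here encode the subunits of the mitochondrial respiratory chain and of the ATP synthase, most of whose complexes are assembled from the products of 2 genomes. They were taken from the count table by gene symbol and protein-coding biotype, as the mitochondrial genes mt-Nd, mt-Co, mt-Atp and mt-Cytb and the nuclear genes named Nduf followed by a, b, c, s or v and a number, Sdha to Sdhd, or with names beginning with Uqcr, Cox4 to Cox8 or Atp5. Assembly factors such as the Ndufaf and Sdhaf genes are not among them. In all, 98 of the 54532 genes in the table met this rule, 13 of them mitochondrial and 85 nuclear. Of these, 93 passed the filter on low counts and were tested among 15472 genes, namely all 13 mitochondrial genes and 80 of the nuclear ones. The rule itself uses names only.

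Bulk RNA-seq was carried out on the frozen prostates of 8 male NOD/ShiLtJ mice, a strain with spontaneous autoimmune disease. The control group (animals 1, 3, 65 and 69) received PBS and the etanercept group (animals 17, 19, 50 and 52) received 4 mg/kg etanercept, a soluble receptor that traps the inflammatory cytokine TNF, in 2 injections a week over 5 weeks, with tissue taken at an age of 30 weeks. The labels name no transgene or mutation, and they do not give the diabetic status of these 8 mice. The study analysed its treatment groups without separating diabetic from non-diabetic animals. The libraries held 13760669 to 25178942 counts, and every one contained the luminal prostate transcript Pbsn (18903 to 253657 counts). They differed in what else they contained, since the summed level of 7 seminal vesicle genes was 97204 CPM in etanercept 17, 4001 CPM in control 69 and at most 668 CPM in the others, and the sum of 12 skeletal muscle genes was 2544 CPM in control 3 and 72.1 to 1325 CPM elsewhere, where it was mostly Acta1.

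Complex I (NADH dehydrogenase), complex III (the cytochrome bc1 complex) and complex IV (cytochrome c oxidase) pump protons across the inner mitochondrial membrane, complex II (succinate dehydrogenase) feeds electrons into the chain from the TCA cycle, and complex V (the ATP synthase) uses the proton gradient to make ATP. The mitochondrial genome is transcribed inside the organelle by its own RNA polymerase as long transcripts that are cut into single mRNAs, whereas the nuclear subunits are transcribed one by one in the nucleus, often under factors such as NRF1, GABP and YY1. Complex II is built from nuclear genes alone. Prostate luminal epithelium is known for a zinc-rich, citrate-secreting metabolism in which the TCA cycle is cut short before citrate is oxidised.

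The sequence of the mitochondrial genes bears on how reads from them can be counted. Chromosome 1 of the reference (GRCm38) carries an annotated nuclear copy of a stretch of the mitochondrial genome, with 7 pseudogenes between chr1:24611535 and chr1:24616197 on the minus strand. When every 150-base window of each mitochondrial transcript was compared with all other annotated transcripts, 99.4% of the windows of mt-Co2, 99.4% of mt-Atp6, 99.8% of mt-Co3, 97.97% of mt-Nd4l and 96.98% of mt-Nd3 also occurred in another gene. The share was 59.1% for mt-Nd4 and 23.6% for mt-Co1, whose copies are cut off, and 0% for mt-Nd1, mt-Nd2, mt-Nd5, mt-Nd6 and mt-Cytb. It was also 0% for mt-Atp8, which has no annotated copy of its own but lies between mt-Co2 and mt-Atp6, overlaps mt-Atp6 and is therefore grouped with them. The 3 sequences below are from the genomic reference. They show where the longest run identical to the copy begins in mt-Co1 and mt-Nd3, and where it ends in mt-Nd4. Almost all of mt-Nd3 is copied. Capitals mark this longest run identical in the chromosome 1 copy, and small letters the bases outside it, some of which may still lie in the copy. The copy of mt-Co1 (Gm29216, 492 bases) begins within the gene, and its longest identical run covers the last 479 bases of the gene. That of mt-Nd4 (Gm28439) is identical over its first 876 bases, and that of mt-Nd3 (Gm28438) over 342 bases.
mt-Co1, chrM:6334-6453, plus strand: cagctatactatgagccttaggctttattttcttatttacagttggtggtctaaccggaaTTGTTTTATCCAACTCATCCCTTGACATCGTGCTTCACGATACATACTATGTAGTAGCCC
mt-Nd4, chrM:10983-11102, plus strand: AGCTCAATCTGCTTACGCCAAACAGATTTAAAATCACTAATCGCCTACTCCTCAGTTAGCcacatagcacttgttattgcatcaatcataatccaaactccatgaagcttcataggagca
mt-Nd3, chrM:9462-9521, plus strand: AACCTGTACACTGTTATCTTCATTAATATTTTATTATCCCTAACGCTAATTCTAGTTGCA

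The 6 genes with nearly all windows shared, or enclosed by such genes, held only 0.285% to 1.36% of the mitochondrial counts of a mouse. Per kilobase of summed exon length and averaged over the 8 mice, mt-Co1 had 8058 CPM, mt-Cytb 4308, mt-Nd1 4174, mt-Nd4 1758, mt-Nd6 1676, mt-Nd2 1650.3 and mt-Nd5 803. On the same per-kilobase scale mt-Co2 had 87.4 CPM, mt-Co3 76.96, mt-Atp6 68.7, mt-Nd4l 10.4, mt-Nd3 8.87 and mt-Atp8 3.403. The 6 genes with low counts are therefore uncertain as levels and are given apart from the other 7. The part of the shared windows in these low counts was not tested on reads. The chromosome 1 pseudogenes had 1587 to 17152 counts per mouse, most in control 1.

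**Figure D1:**
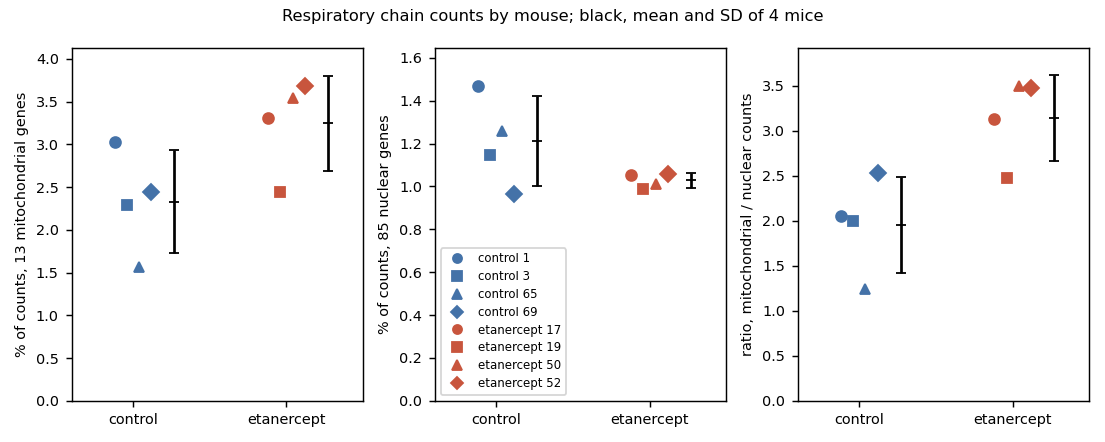
Percent of all counts on the 13 mitochondrial genes (left), percent on the 85 nuclear genes (middle) and the ratio of these counts (right), with 1 symbol per mouse and the group mean with SD in black (n = 4). The ratio lies between 1.24 and 2.53 in the control mice and between 2.47 and 3.501 in the etanercept-treated mice, so that the groups meet at control 69 and etanercept 19.

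As a share of the library, the 13 mitochondrial genes took 3.03%, 2.29%, 1.56% and 2.45% of all counts in control 1, 3, 65 and 69 and 3.31%, 2.44%, 3.54% and 3.68% in etanercept 17, 19, 50 and 52. The means were 2.33% ± 0.602 in the control and 3.24% ± 0.556 in the etanercept group (SD, n = 4), and the groups overlapped through control 1 and 69 and etanercept 19. The difference of the means was 0.9135 percentage points, and 1.421 when the 50 genes with most counts, other than mitochondrial ones, were left out of the total. The 85 nuclear genes took 1.47%, 1.15%, 1.26% and 0.966% in the control mice and 1.06%, 0.988%, 1.01% and 1.06% in the etanercept-treated mice. Here the control mice were the more variable, at 1.21% ± 0.211 against 1.03% ± 0.035 (SD, n = 4), with control 69 below all 4 treated animals. The 95% Wilson intervals of these shares extend by at most 0.00978 percentage points for the mitochondrial and 0.0059 for the nuclear genes and cover counting error only, and they are far narrower than the spread between mice. Counts on mitochondrial genes per count on nuclear genes were 2.06, 1.99, 1.24 and 2.53 in the control mice and 3.14, 2.47, 3.501 and 3.48 in the etanercept-treated mice, with means of 1.96 ± 0.535 and 3.15 ± 0.480 (SD, n = 4). The highest control mouse, 69, stood just above the lowest treated mouse, 19, and all other treated mice were above all control mice. In a bulk tissue, fewer cells of a type and less RNA per cell cannot be told apart, and this holds for each result that follows.

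Gene by gene, most mitochondrial genes had higher and most nuclear genes lower values with etanercept, without any gene passing the adjusted threshold. The median log2 fold change (etanercept against control) was 0.505 over the 13 mitochondrial genes, of which 11 were positive, and -0.209 over the 80 nuclear genes, of which 62 were negative. Over all 15472 tested genes the median was -0.0099, with 49% positive and 51% negative. At an adjusted p of at most 0.05, edgeR (quasi-likelihood test, Benjamini-Hochberg adjusted) called 0 of the 93 genes and 0% of all genes, and DESeq2 called 0 of the 93 genes and 0.0883% of all genes. The smallest adjusted p of a respiratory chain gene was 0.739 in edgeR and, in DESeq2, 0.0985 for Ndufa2 and 0.194 for mt-Nd5. Without adjustment, edgeR gave a p of at most 0.05 to 3 mitochondrial genes, all higher with etanercept, and to 15 nuclear genes, 2 higher and 13 lower, where 2.99% of all genes were higher and 3.63% lower at that level. DESeq2 gave 5 and 0 mitochondrial genes and 2 and 14 nuclear ones, with 2.2% of all genes higher and 3.53% lower. Genes named below with such a p outside the rule for named genes were chosen after their values were seen.

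These counts depended on single mice, since 1 mitochondrial gene was higher without etanercept 52, 8 and 7 nuclear genes were lower without control 1 and without etanercept 17, and 1 nuclear gene was higher without control 1 or control 65. Over all tested genes, 263 of 16012 were higher without etanercept 52, 499 of 15855 without control 1 and 277 of 15996 without control 65. Lower were 447 of 15855 without control 1 and 632 of 15980 without etanercept 17. With all mice, 463 of 15472 were higher and 561 lower. The median over the mitochondrial genes was 0.309 without control 65 and 0.809 without control 1, and that over the nuclear genes was -0.119 without control 1. With a trend on GC content removed, the mitochondrial median was 0.258 and the nuclear median -0.206. The difference of the 2 medians, 0.714 in the fit with all mice, was 0.463 with the GC trend removed, 0.869 with the length trend removed, and 0.491 to 0.929 when 1 mouse was left out.

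**Figure D2:**
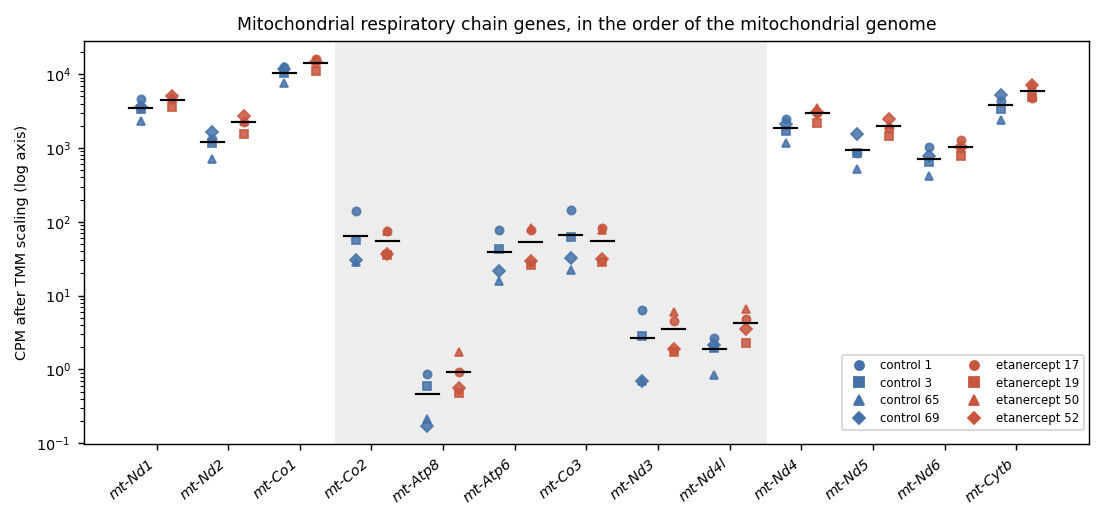
Level of each of the 13 mitochondrial genes as CPM on a log axis, in genome order, with 1 symbol per mouse and black lines for group means. The grey band marks the 5 genes whose windows are nearly all shared with nuclear copies and mt-Atp8, which lies between such genes, and these 6 have the lowest levels. Control 65 has the lowest value in 11 of the 13 genes, and in no gene are the groups fully apart.

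Complex I takes 7 subunits from the mitochondrial genome, all of them parts of its membrane arm, and all 7 had positive log2 fold changes. mt-Nd5 (chrM:11742-13565) gave 843, 865, 524 and 1535 CPM in control 1, 3, 65 and 69 and 1897, 1477, 2071 and 2500.1 CPM in etanercept 17, 19, 50 and 52. Control 69 exceeded etanercept 19, and the other treated mice were above all control mice. Its log2 fold change was 1.08 ± 0.34 (SE), with an unadjusted p of 0.0103 in the quasi-likelihood test of edgeR and an exact permutation p of 0.0571. mt-Nd2 (chrM:3914-4951) gave 1323, 1158, 701 and 1632 CPM in the control mice and 2269, 1570.2, 2358 and 2693 CPM in the etanercept-treated mice, with the same pair of animals overlapping and a log2 fold change of 0.88 ± 0.304 (p = 0.0161, edgeR, unadjusted, exact permutation p = 0.0571). mt-Nd4 (chrM:10167-11544) gave 2494, 1682, 1182 and 2145 CPM in the control mice and 3009, 2214, 3526 and 3125 CPM in the etanercept-treated mice, and its log2 fold change was 0.66 ± 0.29 (p = 0.0492, edgeR, unadjusted, exact permutation p = 0.0571). Here it was control 1 that exceeded etanercept 19.

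mt-Nd1 (chrM:2751-3707) gave 4611, 3361, 2301 and 3557 CPM in the control mice and 4644, 3555, 4869 and 5062 CPM in the etanercept-treated mice, and its log2 fold change of 0.39 ± 0.29 was the smallest of the 7 mitochondrial genes of complex I. mt-Nd6 (chrM:13552-14070), the only protein gene read from the other strand, gave 1039, 644, 419 and 775 CPM in the control mice and 1272, 789, 994 and 1028 CPM in the etanercept-treated mice, a log2 fold change of 0.505 ± 0.29. Since the deposited counts do not record strand and mt-Nd6 meets mt-Nd5 at its end, its level is uncertain. mt-Nd4l and mt-Nd3, both among the genes with shared windows, had 12 to 109 and 10 to 177 counts per mouse and log2 fold changes of 1.17 ± 0.56 and 0.403 ± 0.81, and that of mt-Nd3 was 0.036 without etanercept 50 and 1.304 without control 1. Without control 65 the values of mt-Nd1 and mt-Nd6 were 0.222 and 0.301.

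Among the subunits of complexes III and IV, mt-Cytb and mt-Co1 had positive and mt-Co2 and mt-Co3 negative values. mt-Cytb (chrM:14145-15288), the single mitochondrial subunit of complex III, gave 4386, 3371, 2404 and 5270.1 CPM in the control mice and 4812, 4941, 7087 and 7159 CPM in the etanercept-treated mice, with a log2 fold change of 0.64 ± 0.33 (p = 0.0819, edgeR, unadjusted, exact permutation p = 0.0857). Control 69 lay above etanercept 17 and 19. mt-Co1 (chrM:5328-6872), which holds the haem and copper centre of complex IV, took 40.4% to 49.8% of the mitochondrial counts of a mouse. It gave 12479.6, 10267, 7545 and 11702 CPM in the control mice and 16053, 11091, 15754 and 14703 CPM in the etanercept-treated mice, a log2 fold change of 0.46 ± 0.32 (p = 0.191, edgeR, unadjusted, exact permutation p = 0.0857).

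mt-Co2 and mt-Co3, the other complex IV subunits of this genome, were the 2 mitochondrial genes with negative log2 fold changes, -0.197 ± 0.51 and -0.25 ± 0.58. mt-Co2 gave 140.4, 55.9, 28.2 and 30.8 CPM in the control mice and 75.7, 35.9, 75.3 and 36.2 CPM in the etanercept-treated mice, and mt-Co3 146, 61.8, 22.3 and 31.9 CPM in the control mice and 82.1, 28.8, 77.7 and 31.8 CPM in the etanercept-treated mice. In both genes control 1 was highest, and without control 1 the log2 fold changes were 0.52 and 0.48. Both were also positive with the length trend removed, at 0.17 and 0.077. Of the ATP synthase genes, mt-Atp6 gave 78.1, 42.7, 15.8 and 21.8 CPM in the control mice and 77.6, 25.8, 82.6 and 29.8 CPM in the etanercept-treated mice and a log2 fold change of 0.44 ± 0.55, and mt-Atp8, with 3 to 29 counts per mouse, a log2 fold change of 0.97 ± 0.95. That of mt-Atp6 was 0.163 without etanercept 50 and 0.9855 without control 1, and that of mt-Atp8 0.486 and 1.456 without the same mice. Apart from mt-Atp8, the 7 genes with under 60% of their windows shared were positive throughout, from 0.39 to 1.08 with a median of 0.637, and the other 6 ran from -0.25 to 1.17 with a median of 0.423.

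**Figure D3:**
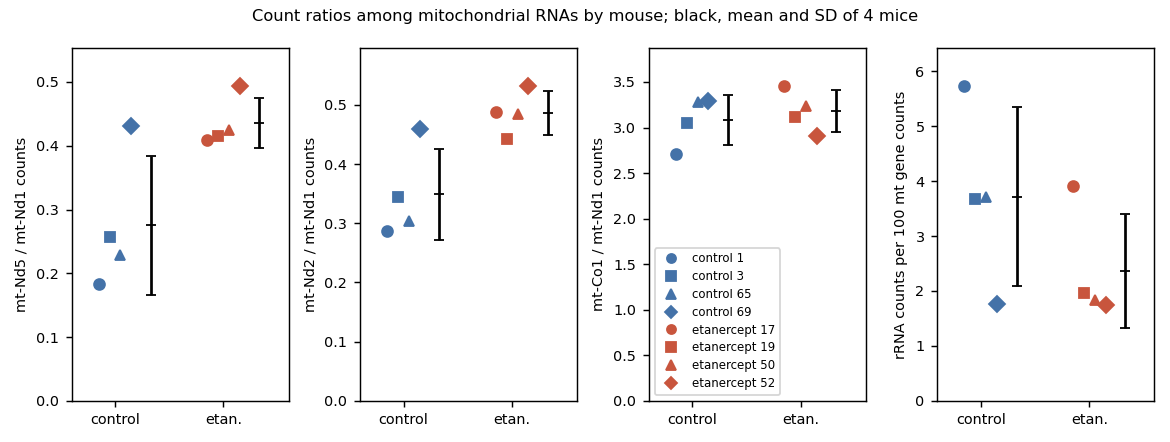
Counts on mt-Nd5, mt-Nd2 and mt-Co1 per count on mt-Nd1, and ribosomal RNA counts (mt-Rnr1 and mt-Rnr2) per 100 counts on the 13 mitochondrial genes, with 1 symbol per mouse and the group mean with SD in black (n = 4). Control 69 lies among or near the treated mice in the mt-Nd5, mt-Nd2 and rRNA panels, while mt-Co1 per mt-Nd1 overlaps throughout.

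The mitochondrial genes did not keep 1 ratio to each other. Counts on mt-Nd5 per count on mt-Nd1 were 0.183, 0.257, 0.228 and 0.431 in the control mice and 0.408, 0.415, 0.425 and 0.494 in the treated mice, with control 69 among the treated animals. mt-Nd2 per mt-Nd1 was 0.287, 0.345, 0.305 and 0.459 against 0.489, 0.442, 0.484 and 0.532, again with control 69 apart from the other control mice. mt-Nd4 per mt-Nd1 ranged from 0.5004 to 0.603 in the control and from 0.617 to 0.724 in the etanercept group, without overlap. Of the windows of mt-Nd4, 59.15% are shared with a nuclear copy. The groups overlapped in the other ratios to mt-Nd1. mt-Cytb per mt-Nd1 ran from 0.951 to 1.48 in the control and 1.04 to 1.46 in the etanercept group. For mt-Nd6 per mt-Nd1 these ranges were 0.182 to 0.225 and 0.203 to 0.274. mt-Co1 per mt-Nd1, at 3.08 ± 0.273 and 3.18 ± 0.230 (SD, n = 4), differed by less than the spread between mice. The libraries were poly(A)-selected and still held mitochondrial ribosomal RNA. Per 100 counts on the 13 genes there were 5.74, 3.68, 3.71 and 1.76 rRNA counts in the control mice and 3.92, 1.96, 1.84 and 1.75 in the treated mice, so control 69 again stood with the treated animals, etanercept 17 lay above control 3 and 65, and control 1 was highest. The part of RNA recovery in these ratios was not tested.

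Summed smooth muscle markers (8 of 8 tested, 0 of them at 0 in all mice) ran from 3868 to 7957 CPM in the control and from 7217 to 14989 CPM in the etanercept group, so 3 of the 4 treated mice lay above all control mice. Etanercept 19, with the lowest mitochondrial share of its group, had the lowest sum of its group, whereas control 1, with the highest mitochondrial share of its group, had the lowest sum of all mice. Summed luminal markers (10 of 10 tested) ran from 14887 to 248503 CPM in the control and 16835 to 201663 CPM in the etanercept group, with control 1 and etanercept 17 lowest. That sum was mostly Sbp, a secreted spermine-binding protein, in the 4 mice with the highest sums (up to 225760 CPM in control 69), while Pbsn, Krt8 and Krt18 of the same list were highest of all mice in control 1 (9172, 476 and 1067 CPM) and Pbsn was 7219 CPM in etanercept 17. The skeletal muscle sum ran from 72.1 to 2544 and from 704 to 1325 CPM. In the treated mice that sum was mostly Acta1, skeletal muscle actin (666 to 1288 CPM), with Myh4 and Mb at 0 in all 4 and Ttn at no more than 1.75 CPM. Mb was at most 2.67 CPM in any mouse. In the treated mice Ckm ran from 15.9 to 23.4 CPM and Actn3 from 4.19 to 11.2 CPM. Ckm was 0.868, 161.5, 6.62 and 15.2 CPM in control 1, 3, 65 and 69. In control 3, Acta1 gave 948, Myh4 353 and Ttn 82.8 CPM. Of the other lists, the median of the summed level was 106 CPM in the control and 45.5 CPM in the etanercept group for T cell markers, 1431 and 499 CPM for B cell, 127 and 24.6 CPM for adipocyte and 277 and 174 CPM for basal epithelial markers. For macrophage markers the medians were 647 and 512 CPM, for endothelial markers 68.8 and 55.9 CPM and for seminal vesicle markers 13.5 and 347 CPM. The groups overlapped in all 10 lists. The part of tissue composition in the mitochondrial share was not tested.

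Turning to the nuclear genes, the log2 fold changes were centred below those of all genes in complexes I, III, IV and V. Complexes were assigned by gene name, so Ndufa4 and Ndufa4l2 were counted with complex I. The medians were -0.262 for complex I (30 of 37 negative), -0.163 for complex III (6 of 8), -0.198 for complex IV (13 of 14) and -0.206 for complex V (11 of 17), against -0.009 for complex II (2 of 4). Without control 1 the medians of complexes I, IV and V were -0.129, -0.114 and -0.118, and that of complex V was -0.1125 without control 65 and -0.113 without etanercept 19. With any 1 mouse left out, the medians of complexes I, III, IV and V stayed negative, and that of complex II ran from -0.082 to 0.063. With the length trend removed, however, the medians were -0.074, 0.125, 0.079, 0.070 and -0.1295 for complexes I to V, so those of III and IV changed sign, and the median of all nuclear genes was -0.040. All 4 etanercept-treated mice lay above all 4 control mice in 2 of the 80 genes, Ndufs1 and Uqcrc2, where 2.41% of all genes do so. They lay below in 6, Ndufa2, Ndufa12, Ndufb7, Ndufb10, Uqcr11 and Cox4i2, where 2.53% of all genes do so. The spread was unequal, since the median SD of log2(CPM + 1) was 0.321 over the control and 0.187 over the etanercept group and the control SD was the larger in 61 of the 80 genes. Control 1 had the highest value in 44 of the 80 genes. Of the 85 nuclear genes, 29 overlap exons of another gene, 26 of them on the other strand, and are uncertain where strand was not used.

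**Figure D4:**
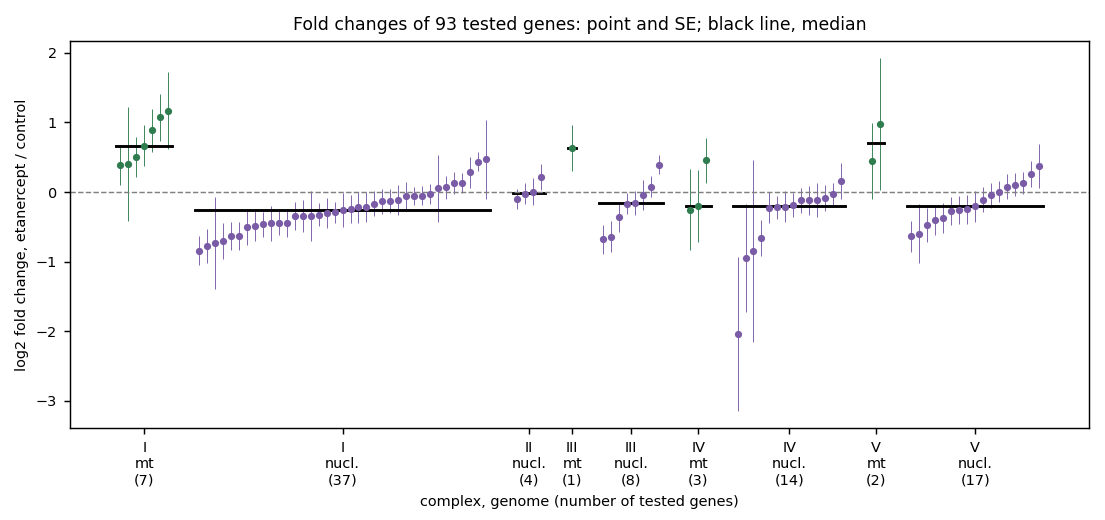
The log2 fold change (etanercept against control) of each of the 93 tested genes from the edgeR fit, ordered by value within complex and genome, with vertical bars for the SE and black lines for medians. Nuclear genes of complexes I, III, IV and V have medians between -0.262 and -0.163, complex II lies around 0, and the mitochondrial genes lie mostly above 0, apart from mt-Co2 and mt-Co3.

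Most nuclear genes of complex I encode small accessory subunits that surround its catalytic core. Ndufa2 (chr18:36742332-36744557), such a subunit of the matrix arm, gave 232, 137, 193 and 132 CPM in control 1, 3, 65 and 69 and 96.2, 106, 94.9 and 90.6 CPM in etanercept 17, 19, 50 and 52. All treated mice were below all control mice, with means of 174 ± 48.2 and 96.8 ± 6.39 CPM (SD, n = 4). Its log2 fold change was -0.84 ± 0.205 (p = 0.00227, edgeR, unadjusted), and the exact two-sided permutation test gave p = 0.0286, the smallest that 70 assignments of 8 mice allow. Its exons overlap those of Tmco6 on the other strand. It was also the nuclear gene of complex I with the highest level per kilobase, 236 CPM.

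Of the 37 nuclear genes counted with complex I by name, which include Ndufa4 and Ndufa4l2, 30 had negative log2 fold changes. Among the 7 positive ones were the accessory subunits Ndufb9 (0.28), Ndufb5 (0.13) and Ndufb2 (0.053). Ndufs6, an accessory subunit of the matrix arm, gave 86.6, 47.5, 71.8 and 57.9 CPM in the control mice and 28.5, 48.99, 43.4 and 33.3 CPM in the etanercept-treated mice, a log2 fold change of -0.78 ± 0.24 (p = 0.00948, edgeR, unadjusted, exact permutation p = 0.0571), with control 3 below etanercept 19. Ndufb10, of the membrane arm, gave 168, 97.8, 119 and 104 CPM in the control mice and 68.7, 84.7, 72.8 and 89.6 CPM in the etanercept-treated mice, a log2 fold change of -0.63 ± 0.199, and Ndufb7, which lies on the intermembrane-space side, 188, 112, 141 and 104 CPM in the control mice and 89.3, 95.6, 88.01 and 78.4 CPM in the etanercept-treated mice, a log2 fold change of -0.63 ± 0.203. In both genes the groups did not overlap. Ndufa12, Ndufb3, Ndufb8, Ndufa6 and Ndufv3 had unadjusted p values of 0.0213 to 0.0496 and log2 fold changes from -0.70 to -0.44.

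The core subunits of complex I that the nucleus encodes had values on both sides of 0. Ndufs1 (chr1:63143596-63176833), the largest iron-sulphur subunit, gave 46.7, 41.9, 44.2 and 49.5 CPM in control 1, 3, 65 and 69 and 59.5, 61.1, 61.2 and 64.7 CPM in etanercept 17, 19, 50 and 52. All treated mice were above all control mice, and the log2 fold change was 0.44 ± 0.13 (p = 0.00879, edgeR, unadjusted, exact permutation p = 0.0286). Some of its exons overlap a neighbour on the other strand. Log2 fold changes of other core subunits were -0.33 (Ndufs3), -0.13 (Ndufv1), -0.12 (Ndufs7), -0.055 (Ndufs8) and 0.068 (Ndufv2). Ndufs5, an accessory subunit with a log2 fold change of 0.47, had 18 to 70 counts per mouse and is uncertain.

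Complex II had the median closest to that of all genes. Sdha (chr13:74322254-74350280), the flavoprotein that oxidises succinate, gave 150.02, 169, 191 and 228 CPM in the control mice and 197, 249.8, 231 and 181 CPM in the etanercept-treated mice and a log2 fold change of 0.22 ± 0.18 (p = 0.265, edgeR, unadjusted, exact permutation p = 0.20). Sdhc and Sdhd, which anchor the enzyme in the membrane, had log2 fold changes of -0.095 ± 0.14 and 0.004 ± 0.196, and Sdhb, the iron-sulphur subunit, -0.021 ± 0.15. With 1 mouse left out, the log2 fold change ran from 0.114 to 0.337 for Sdha and from -0.1515 to -0.023 for Sdhc. Sdhd gave 58.3, 75.7, 107 and 82.2 CPM in the control mice and 70.5, 86.7, 77.2 and 89.6 CPM in the etanercept-treated mice, where control 65 was highest and control 1 lowest, and the sign of its log2 fold change turned under the scalings by RLE factors, upper quartile and library size alone.

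In complex III the core protein Uqcrc2 (chr7:120635176-120659524) gave 89.6, 107, 90.2 and 103 CPM in control 1, 3, 65 and 69 and 138, 133, 122 and 117 CPM in etanercept 17, 19, 50 and 52. The groups did not overlap, and the log2 fold change was 0.39 ± 0.14 (p = 0.0186, edgeR, unadjusted, exact permutation p = 0.0286). Of its transcript windows, 13.6% are shared with another gene. Its partner Uqcrc1 had a log2 fold change of 0.076. Among the small subunits, Uqcr11 (chr10:80402997-80406830) gave 188, 105, 129 and 103 CPM in the control mice and 75.3, 90.6, 81.7 and 80.9 CPM in the etanercept-treated mice, without overlap, and a log2 fold change of -0.68 ± 0.21 (p = 0.00939, edgeR, unadjusted, exact permutation p = 0.0286). Uqcrh, the hinge protein that helps bind cytochrome c1, had a log2 fold change of -0.65 ± 0.22 with control 69 below etanercept 17 and 19. Uqcr10, with the highest level per kilobase in the complex (208 CPM), had -0.17 ± 0.15.

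By CPM per kilobase of summed exon length, the highest nuclear gene was Cox8a, a complex IV subunit that every tissue uses. Summed exons can be longer than an mRNA, so these values do not rank mRNA abundance. Averaged over the 8 mice, Cox8a had 592 CPM per kilobase, Cox6a1 546 and Cox4i1 504, where mt-Co1 had 8058. Cox5b (chr1:36691449-36693681), a zinc-binding subunit on the matrix side, had the smallest unadjusted p of the genes that were lower, with 223, 121, 158 and 166 CPM in the control mice and 63.1, 127, 119.9 and 111 CPM in the etanercept-treated mice and a log2 fold change of -0.67 ± 0.26 (p = 0.0281, edgeR, unadjusted, exact permutation p = 0.0571). Etanercept 17 was lowest, and control 3 lay below etanercept 19. Of the 14 tested nuclear genes with names from Cox4 to Cox8, Cox6c was the 1 with a positive value, 0.15 ± 0.26, which was -0.032 without etanercept 17.

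Complex IV is also known for subunits with forms restricted to some tissues. The widespread forms had log2 fold changes near those of the other genes, -0.18 for Cox4i1, -0.087 for Cox6a1, -0.22 for Cox6b1, -0.12 for Cox7a2, -0.12 for Cox7b and -0.21 for Cox8a. The signs of Cox6a1, Cox6b1, Cox7a2, Cox7b and Cox8a turned with the length trend removed. With 1 mouse left out, the values ran from -0.236 to -0.132 for Cox4i1, -0.185 to -0.018 for Cox6a1 and -0.314 to -0.125 for Cox6b1. They ran from -0.240 to -0.0009 for Cox7a2, -0.213 to 0.054 for Cox7b and -0.393 to -0.123 for Cox8a. Cox4i2, the form known from lung and from oxygen-sensing cells, had 31, 26, 36 and 11 counts in the control mice and 0, 8, 10 and 6 counts in the treated mice. The groups did not overlap, but at these counts the log2 fold change of -2.04 ± 1.104 (p = 0.0954, edgeR, unadjusted, exact permutation p = 0.0286) is imprecise, and the 0 counts of etanercept 17 allow up to 3 counts. Cox6b2, a testis form, and Cox7a1, a heart and muscle form, had log2 fold changes of -0.94 ± 0.78 and -0.85 ± 1.305, and that of Cox7a1 was 0.45 without control 1, which held 170 of its counts.

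The muscle forms Cox6a2 and Cox8b were not tested, because 112 and 83 counts were found in control 3 and 0 in every other mouse. In control 3 the skeletal muscle markers Myh4 and Atp2a1 had 5287 and 5329 counts, and in each other mouse at most 18 and 76. Cox7b2 and Cox8c, forms known from the testis, and a second gene named Atp5o had 0 counts in all mice. Ndufa4, whose protein is now known as a complex IV subunit, had a log2 fold change of 0.13 ± 0.15. Its hypoxia-responsive relative Ndufa4l2 had -0.73 ± 0.66 at 8 to 58 counts per mouse. By their names, both genes were counted with complex I above.

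Of the 17 tested nuclear genes of complex V, 11 had negative log2 fold changes. Atp5b (chr10:128083273-128090391), the catalytic beta subunit, gave 623, 703, 800.2 and 868 CPM in the control mice and 845, 881, 889.7 and 973 CPM in the etanercept-treated mice, a log2 fold change of 0.26 ± 0.19 (p = 0.193, edgeR, unadjusted, exact permutation p = 0.0571). Atp5a1, the alpha subunit, had the highest level per kilobase of the complex, 220.3 CPM, and a log2 fold change of 0.078 ± 0.18, which was 0.0020 without control 1 and 0.161 without control 69. Of the other subunits of the catalytic part, Atp5c1 (gamma) had 0.007 and Atp5d (delta) -0.37. Atp5e (chr2:174461072-174464105), the epsilon subunit of the central stalk, gave 372, 228, 279 and 183 CPM in the control mice and 161, 171, 185 and 166 CPM in the etanercept-treated mice, a log2 fold change of -0.64 ± 0.22 (p = 0.0163, edgeR, unadjusted, exact permutation p = 0.0571). Only control 69 lay within the range of the treated mice, below etanercept 50.

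**Figure D5:**
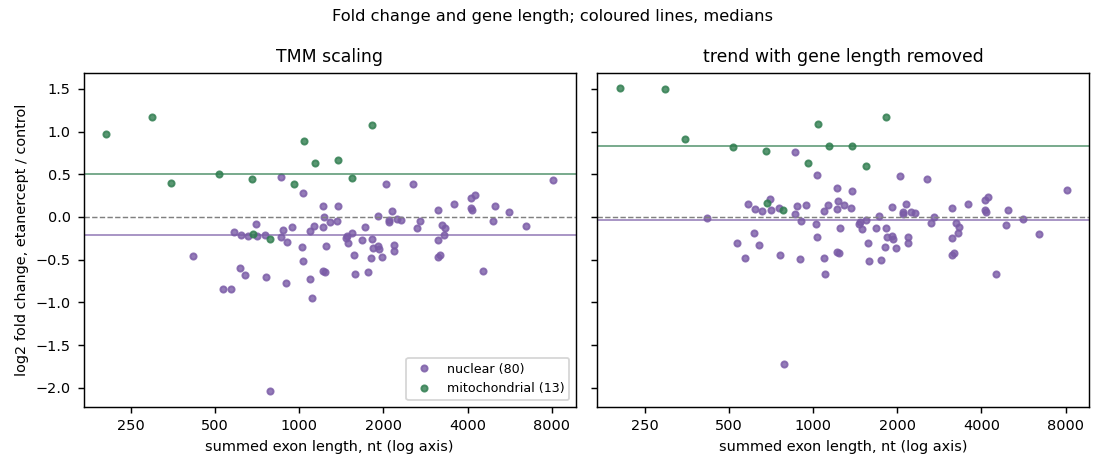
The log2 fold change of the 80 nuclear (purple) and 13 mitochondrial (green) genes against summed exon length in bases (log axis), as fitted (left) and with the length trend of all tested genes removed (right), with coloured lines for the medians. The nuclear median is -0.209 on the left and -0.040 on the right, and the mitochondrial median 0.505 and 0.8285.

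The values of each mouse were related to transcript length, and this relation differed between the groups. Across all tested genes, Spearman's rho between exon length and a mouse's deviation from the mean was -0.159 to -0.011 in the control and 0.064 to 0.154 in the etanercept group, without overlap. The nuclear respiratory chain genes are short, and across 80 of them rho between length and log2 fold change was 0.435, given as a description since these genes share their 8 libraries. The 40 shorter genes had a median of -0.231 and the 40 longer ones -0.102. With the trend over all genes removed, rho was 0.029 and the nuclear median was -0.040 in place of -0.209, and 5 nuclear genes in place of 13 had p no larger than 0.05 before adjustment with a negative sign. Complexes I and V then had medians of -0.074 and -0.130, and complexes II, III and IV 0.125, 0.079 and 0.070, so the sign of these last 3 turned. The mitochondrial median, from genes that are shorter still, was 0.8285 with the trend removed, and 7 of the 13 genes were higher with p no larger than 0.05 before adjustment. Among the 15466 genes of that fit, 2.15% were higher and 3.45% lower at this level. Ndufa2 then had a log2 fold change of -0.48, Uqcr11 -0.33, Ndufb7 -0.67, Ndufs1 0.31 and Uqcrc2 0.45.

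Within single mice, the mean log2(CPM + 1) of the mitochondrial genes minus that of the nuclear genes was 1.32, 1.13, 0.206 and 1.123 in the control mice and 1.90, 1.205, 2.04 and 1.58 in the treated mice. Control 65 was far below the rest, and control 1 lay above etanercept 19. With the 7 mitochondrial genes that have under 60% of their windows shared, mt-Atp8 left out, the same difference was 4.52, 4.54, 3.81 and 5.05 against 5.41, 5.01, 5.51 and 5.57, and here only control 69 reached into the range of the treated mice, above etanercept 19. Within complex I, which takes subunits from both genomes, the difference was 4.28, 4.38, 3.54 and 4.84 against 5.29, 4.83, 5.34 and 5.46. Within complex IV it was 6.94, 7.05, 6.53 and 7.56 against 7.85, 7.43, 7.88 and 7.76, where mt-Co1 is the only mitochondrial gene used.

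The promoters of the nuclear genes were examined for the motifs of the factors named above. RefSeq promoters (GRCm38.p6, 250 bases before to 50 after the start) matched 68 of 84 symbols. GCGCATG, the letters searched for NRF1, was found on either strand in 13 of the 68 (19.1%) and in 5.4% of the promoters of 17492 genes. CCGGAAG, for GABP, was found in 16 (23.5%) and in 12.9% of all, and AAGATGG, for YY1, in 11 (16.2%) and in 7.18% of all. None of these short letter strings contains another. The median log2 fold change was -0.238 with and -0.213 without the NRF1 letters, -0.235 with and -0.210 without those of GABP, and -0.206 with and -0.222 without those of YY1. The promoters of Ndufs6, Uqcr11 and Cox6a1 are shown, because these genes are described above and differ in which letters they hold. Capitals mark the matches, which are YY1 in Ndufs6, GABP and then NRF1 in Uqcr11, and in Cox6a1 the NRF1 letters on both strands, overlapping in a palindrome, followed by GABP on the minus strand of the gene.
Ndufs6, chr13:73328433-73328732, minus strand: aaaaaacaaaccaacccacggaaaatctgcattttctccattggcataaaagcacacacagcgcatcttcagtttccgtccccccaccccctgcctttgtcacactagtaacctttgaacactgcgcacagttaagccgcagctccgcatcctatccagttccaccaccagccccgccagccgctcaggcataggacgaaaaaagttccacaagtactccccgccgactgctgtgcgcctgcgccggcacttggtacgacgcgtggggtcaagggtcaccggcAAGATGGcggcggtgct
Uqcr11, chr10:80406772-80407071, minus strand: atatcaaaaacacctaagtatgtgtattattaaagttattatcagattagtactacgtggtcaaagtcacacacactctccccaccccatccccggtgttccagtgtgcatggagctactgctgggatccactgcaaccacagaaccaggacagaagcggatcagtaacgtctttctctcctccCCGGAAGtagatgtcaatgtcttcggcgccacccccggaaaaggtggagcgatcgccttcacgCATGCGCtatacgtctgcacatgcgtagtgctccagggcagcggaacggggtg
Cox6a1, chr5:115348909-115349208, minus strand: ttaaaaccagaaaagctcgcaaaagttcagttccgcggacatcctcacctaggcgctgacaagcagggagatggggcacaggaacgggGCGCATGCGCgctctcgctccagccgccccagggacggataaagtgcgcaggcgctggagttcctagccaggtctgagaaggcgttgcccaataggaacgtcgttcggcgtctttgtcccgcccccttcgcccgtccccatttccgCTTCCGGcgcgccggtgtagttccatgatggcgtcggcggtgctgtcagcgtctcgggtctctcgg

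Genes that serve the respiratory chain without being part of it were read from 6 lists, in which edgeR called 0 genes at an adjusted p of at most 0.05 and the medians are to be set against -0.0099 for all genes. The trend with gene length described above was not removed from the medians of these lists, and its part in them was not tested. Among all genes, 2.99% were higher and 3.63% lower with p no larger than 0.05 before adjustment. Of 47 tested assembly factors, 0 were higher and 5 lower at that level, with a median of -0.041. Uqcc2, a complex III assembly factor, gave 62.05, 40.3, 42.5 and 26.3 CPM in the control mice and 13.9, 23.5, 26.7 and 24.9 CPM in the etanercept-treated mice and a log2 fold change of -0.94 ± 0.29, and Cox14, which acts on newly made mt-Co1 protein, 109, 68.1, 110.1 and 70.4 CPM in the control mice and 52.4, 62.03, 66.8 and 54.2 CPM in the etanercept-treated mice and -0.602 ± 0.203. All 4 treated mice lay below all 4 control mice in 3 assembly factors, Cox14, Sdhaf1 and Cox11, and above them in 1, Coa5, where 2.53% of all genes lay below and 2.41% above. Cox11 gave at most 5.21 CPM in any mouse, and in Coa5 the groups nearly touched, at 167 CPM in control 3 and in etanercept 19. The other 3 genes that were lower were Ndufaf8 (-0.59), Sdhaf1 (-1.07) and Pet100 (-1.004), all log2 fold changes.

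The lists of mitochondrial gene expression had medians close to that of all genes or above it. Of 19 genes of mitochondrial DNA maintenance and transcription, 0 were higher and 1 was lower with p no larger than 0.05 before adjustment, Mterf4, a factor of mitochondrial ribosome assembly, with a log2 fold change of -0.67 ± 0.295, and the median was -0.004. The next gene, the mitochondrial thymidine kinase Tk2, had -0.43 ± 0.22. The DNA-packaging factor Tfam gave 29.3, 37.2, 35.8 and 39.9 CPM in the control mice and 29.4, 32.7, 37.2 and 30.5 CPM in the etanercept-treated mice and the mitochondrial RNA polymerase Polrmt 8.43, 7.402, 15.1 and 11.4 CPM in the control mice and 11.8, 7.65, 12.1 and 13.7 CPM in the etanercept-treated mice, with log2 fold changes of -0.13 ± 0.17 and 0.092 ± 0.32. Of 20 genes of mitochondrial RNA processing and stability and of 16 nuclear regulators, 0 passed in either direction, with medians of 0.118 and 0.111. The smallest p values belonged to Rexo2, a nuclease for short RNA (0.43 ± 0.203), and Angel2 (0.28 ± 0.16), and to the nuclear receptors Esrrg (0.46 ± 0.23) and Ppard (0.58 ± 0.33). The mRNA levels of Nrf1 and Ppargc1a had log2 fold changes of -0.049 ± 0.23 and 0.17 ± 0.59.

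The TCA cycle, which supplies the chain with electrons, had the most positive list median, 0.165, and 15 of its 17 genes were positive. With p no larger than 0.05 before adjustment, 3 were higher and 0 lower, against 2.99% and 3.63% of all genes. Pdha1, of the pyruvate dehydrogenase complex, gave 76.2, 95.8, 103 and 101 CPM in the control mice and 143, 132, 138 and 159.7 CPM in the etanercept-treated mice, a log2 fold change of 0.61 ± 0.15 (SE, adjusted p = 0.739 in edgeR). Idh3b, of the NAD-dependent isocitrate dehydrogenase, and Dld, a subunit shared by several dehydrogenases, had log2 fold changes of 0.503 ± 0.16 and 0.46 ± 0.17. In these 3 genes the treated mice lay above the control mice, as in 2.41% of all genes. Citrate synthase, Cs, had 0.058 ± 0.15. Among 20 electron carriers and membrane channels 0 passed in either direction, the median was 0.010, and the smallest p values belonged to Tomm40 (-0.42 ± 0.21) and Phb2 (-0.38 ± 0.19), with 0.15 ± 0.23 for cytochrome c (Cycs).

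A second set of nuclear genes with a mitochondrial task, the ribosomal proteins of the organelle, was set beside the nuclear respiratory chain genes. Of 77 tested, 67 were negative, with a median log2 fold change of -0.260, and 10 were lower and 0 higher with p no larger than 0.05 before adjustment, against 3.63% and 2.99% of all genes. Their mean log2(CPM + 1) was 5.18 ± 0.119 in the control and 4.94 ± 0.025 in the etanercept group (SD, n = 4), without overlap. The same score over the nuclear respiratory chain genes, 6.53 ± 0.208 and 6.34 ± 0.009 (SD, n = 4), overlapped through control 69. With the length trend removed the median of the ribosomal proteins was -0.198. At an adjusted p of 0.05 edgeR called 0 of the 77 and 0% of all genes, and DESeq2 1 of the 77 and 0.0883% of all genes. As with the respiratory chain genes, the part of tissue composition was not tested.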

How the data were processed

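The authors extracted RNA from frozen prostates, obtained paired reads of 150 bases from poly(A)-selected libraries, and processed the reads with, per the labels, fastp, STAR 2.6.1d, featureCounts 1.5.0-p3 and DESeq2 1.26.0 on mm10. The annotation release and the counting options are not given in the sources used here. The authors deposited raw counts per gene and mouse, with no normalization. By default featureCounts ignores strand and leaves out reads that map to several places or overlap more than 1 gene, which lowers genes with near-identical copies.

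Genes were named from GENCODE M21 (GRCm38), which held 54495 of the 54532 identifiers. The other 37 held 0.00429% of counts. Counts of 4 control and 4 etanercept mice were fitted with the quasi-likelihood test of edgeR 4.0.16 under R 4.3.3, using TMM factors and filterByExpr at its minimum count (10), with Benjamini-Hochberg adjustment over 15472 genes at 0.05. DESeq2 1.42.0 was an alternative. CPM values use the TMM factors and scores are means of log2(CPM + 1). Levels per kilobase use the summed length of all annotated exons of a gene, which can be longer than its mRNA. Single genes were compared by an exact two-sided permutation test over 70 assignments. The scripts were tested on simulated data. Length and GC trends were removed with a lowess curve over all genes (span 0.3). Members and lists were chosen with earlier results of these data known. Named genes were the 13 mitochondrial genes, per complex the nuclear gene with the smallest unadjusted p in each direction and the one with the highest level per kilobase, the tissue-restricted forms with their widespread partners, and the 2 genes with the smallest p of each list. Other alternatives were other scalings, filters and pseudocounts, a covariate for the range of animal numbers, and leaving out each mouse. Total counts were 13760669 to 25178942, and 3 counts were taken as the smallest detectable level. Each library is 1 mouse.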

Additional observations from a re-analysis of the deposited data

Results flagged for a closer look

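Of 94 groups of 4 mice examined, 2 had a mouse far from the other 3, judged by the gap to the nearest mouse as a share of the range by Dixon's criterion, a number within what chance gives, about 1 in 20. In Cox7a2, a complex IV subunit, control 1 was the highest of its group with a share of 0.845. Its 4 control values were 146, 107, 106 and 101 CPM. In the mean log2(CPM + 1) of the 4 complex II genes, etanercept 17 was the lowest of its group with a share of 0.844, at 6.87 against 6.97, 6.97 and 6.98.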

How the results depend on the processing

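No paired analysis was possible because the control and etanercept mice share no animal number. Under every alternative run, 0 respiratory chain genes reached an adjusted p of 0.05 in edgeR or DESeq2, which limits every gene named here to unadjusted values. The difference of the median log2 fold changes, mitochondrial minus nuclear, stayed positive in all of them (0.491 to 0.929 with 1 mouse left out). With the length trend removed, the counts with p no larger than 0.05 before adjustment were 7 mitochondrial genes higher (3 in the main analysis), 4 nuclear genes higher (2) and 5 lower (13), and the medians were -0.040 for all nuclear genes and -0.074, 0.125, 0.079 and 0.070 for complexes I to IV. Among all genes of that fit, 2.15% were higher and 3.45% lower. DESeq2 gave 5 mitochondrial genes higher and the GC trend 1 nuclear gene higher, where 524 of 23795 and 277 of 15457 genes were higher. Leaving out 1 mouse gave 1 to 4 mitochondrial genes higher (1 without etanercept 52), 1 to 2 nuclear genes higher (1 without control 1 or control 65) and 7 to 16 lower (8 without control 1, 7 without etanercept 17, 16 without control 69). Over all tested genes, these fits gave from 263 of 16012 (without etanercept 52) to 870 of 15975 (without control 69) higher. They gave from 398 of 15996 (without control 65) to 956 of 15975 (without control 69) lower. With library size alone, the median of all genes was -0.094.

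With the length trend removed, 22 of the 93 tested genes, 2 mitochondrial and 20 nuclear, had the other sign. Among the genes named by the rule, signs turned as follows. With that trend removed the log2 fold change was 0.17 for mt-Co2, 0.077 for mt-Co3, 0.15 for Uqcr10, 0.095 for Cox8a, 0.21 for Cox6a1, 0.087 for Cox6b1, 0.14 for Cox7a2 and 0.095 for Cox7b. With the GC trend removed it was 0.13 for Cox6a1, -0.065 for Ndufa4 and -0.0087 for Sdhd. With animal number as a covariate it was 0.047 for mt-Co2 and 0.048 for mt-Co3. Sdhd was -0.0086 with RLE factors, -0.013 with upper-quartile factors, -0.067 with library size alone and -0.0079 in DESeq2. With 1 mouse left out the ranges were -0.45 to 0.52 for mt-Co2, -0.55 to 0.48 for mt-Co3, -0.14 to 0.15 for Sdhd, -0.032 to 0.32 for Cox6c, -1.42 to 0.45 for Cox7a1 and -0.21 to 0.054 for Cox7b. The cause was not tested, except that the length and GC alternatives remove those trends by construction. Alternatives restricted to mitochondrial or nuclear genes with few shared windows were chosen after seeing the data and gave medians of 0.637 and -0.194. Depth limits mt-Atp8, mt-Nd3, mt-Nd4l and the tissue-restricted forms, which have few counts.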
